A study of Mus musculus with 6 samples.

Results

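Toll-like receptors, NOD-like receptors and C-type lectin receptors are the sensors by which innate cells detect microbes and damaged cells. They are described here, with 4 of their adaptors, in CCR6+ group 3 innate lymphoid cells (ILC3s) of the mouse small intestine. The genes were chosen by symbol: Tlr followed by a number, Nlrp, Nlrc, Nlrx, Clec followed by a number, and Nod1, Nod2, Naip2, Pycard, Myd88, Ticam1 and Ticam2. Of the 19938 genes tested, 73 met this rule, namely 10 Toll-like receptor genes, 26 NOD-like receptor genes, 33 C-type lectin genes and 4 adaptors. A symbol alone does not show that a gene encodes a receptor. Nlrp5-ps and Nlrp1c-ps, whose symbols end as those of pseudogenes do, are included in these and later counts. The rule uses symbols and no measured value, but it was chosen with earlier results of these data known.

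Toll-like receptors sit in the plasma membrane or in endosomes and signal through the adaptors MyD88 and TRIF (encoded by Ticam1) to NF-kB and interferon regulatory factors. NOD-like receptors sit in the cytosol, where Nod1 and Nod2 detect fragments of bacterial cell wall and several Nlrp and Nlrc proteins assemble inflammasomes with the adaptor ASC, the product of Pycard. C-type lectin receptors bind sugars or ligands on dying cells, and many of their genes lie together on mouse chromosome 6. These families are best known from macrophages and dendritic cells. In the gut, ILC3s are known to respond largely to cytokines that such cells release after sensing microbes.

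The study measured whole-transcript expression on Affymetrix arrays, 1 array per sample, in 2 groups of 3. The RANKL-deficient cells came from adult C57BL/6 mice that carry a Cre transgene and floxed Tnfsf11 alleles (Tnfsf11fl/fl). The control cells came from adult C57BL/6 mice of genotype Tnfsf11fl/fl, for which no Cre is named, and the effects of carrying Cre and of losing RANKL cannot be told apart. Tnfsf11 encodes the TNF family cytokine RANKL, and both groups carry the floxed alleles. Cells were sorted after collagenase IV digestion of lamina propria and were not cultured. Whether each sample came from a different mouse is not stated, so p-values rest on a spread between samples that may be only technical.

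All values are log2 expression as deposited, and a difference is the RANKL-deficient mean minus the control mean. Array values carry no read depth, and the number of arrays limits the precision. The 6 arrays had medians of 5.07 to 5.15 and mean correlations with the other arrays of 0.960 to 0.977 across genes, lowest on control array 1. Their SDs across genes ran from 1.86 on control array 1 to 2.01 on RANKL-deficient array 2. Of 12 ILC3 marker genes listed, the 10 analysed here all lay above the median of all genes, 5.12. Tnfsf11 measured 8.36, 8.65 and 8.52 on RANKL-deficient arrays 1, 2 and 3, against 8.76, 8.41 and 8.25 on control arrays 1, 2 and 3. The groups overlapped, with a difference of 0.035 (95% confidence interval −0.37 to 0.44, limma adjusted p = 0.963; 0.26 without control arrays 1 and 2), and p was 1 in an exact permutation test (two-sided), whose smallest possible value is 0.1. Where its 1 probe set lies with respect to the floxed exons is not known, so the labels are not checked by it. The fit without control arrays 1 and 2, here and below, leaves control array 3 as the only control array. Differences from that fit therefore rest on control array 3 alone.

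None of the 73 genes passed the adjusted threshold of 0.05 in either direction (limma, Benjamini-Hochberg over all genes, lowest adjusted p = 0.408). Over all genes 1 passed, Ccr2, a chemokine receptor gene that was higher in RANKL-deficient cells, which is 0.00502% of the genes tested. At an unadjusted p under 0.05 there were 3 members, or 4.11%, against 8.15% of all genes. The 1 higher member was Clec12a (1.37% of members, against 4.25% of all genes higher), and the 2 lower ones were Tlr8 and Clec4a4 (2.74% of members, against 3.9% of all genes lower). This count was 1 without RANKL-deficient array 2, where 5.70% of all genes passed, and 6 without control array 3, where 14.1% did. Ccr2 itself stayed past the threshold without RANKL-deficient array 3 but not without any of the other 5 arrays.

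The groups did not overlap for 9 members (12.3%), against 14.4% of all genes. For 1 member all RANKL-deficient arrays lay above all control arrays (5.28% of all genes), and for 8 members all lay below (9.08% of all genes). Nlrx1 is among the 8 by its probe set with the higher mean, and its other probe set separated the groups the other way. The median difference over the members was −0.062, beside −0.054 over all genes. Values were higher in RANKL-deficient cells for 27 members and lower for 46. After quantile normalization this split was 39 higher and 34 lower, so no overall direction of the families can be read from it.

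**Figure D1:**
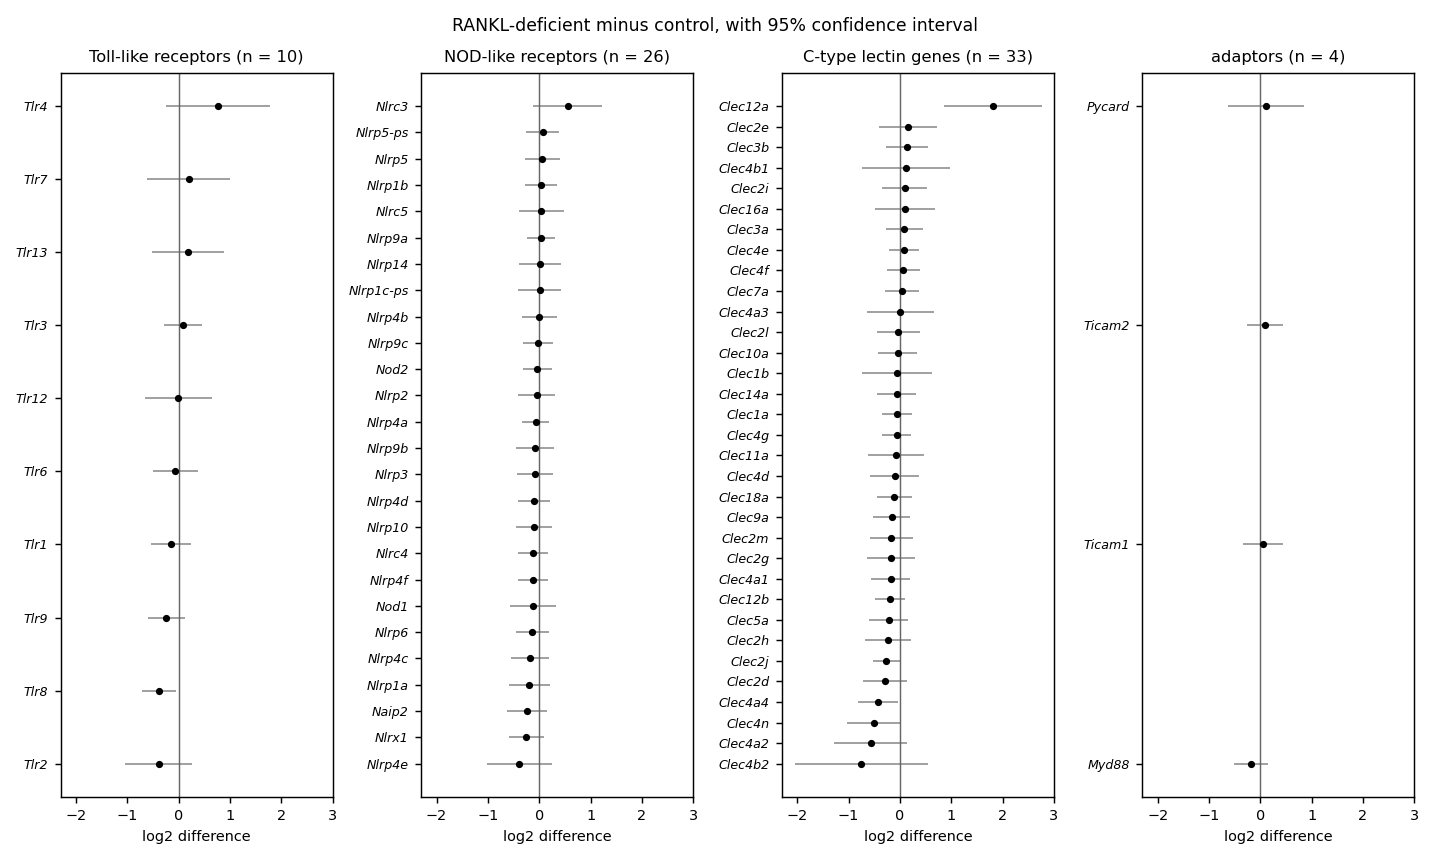
Log2 difference of each of the 73 genes, RANKL-deficient minus control, by family. Points are differences and bars are 95% confidence intervals of single genes from limma, not adjusted for the number of genes. Clec12a lies apart at 1.81, and 63 of the 73 genes lie within 0.3 of 0.

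Most of these genes gave low values. The mean over the 6 arrays lay at or below the median of all genes for 58 members, and no level of background was measured here. Among all genes at or below the median the median difference was −0.10, and among the 58 members it was −0.065. At an unadjusted p under 0.05 (limma), 67 of these 9969 genes were higher and 391 lower, and 1 and 2 of the 58 members. Control array 1 gave the highest of the 6 values for 28 members (38.4%), against 33.4% of all genes, and for 24 of the 58 low members (41.4%), against 45.9% of all low genes. Its part in the lower values of single members was not tested. The 15 members above the median had differences from −0.29 to 0.55 with a median of −0.014.

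C-type lectin genes held the largest difference of all members. Clec12a encodes an inhibitory receptor that recognises uric acid crystals and dead cells and is known from myeloid cells. Its promoter window is shown because it is the 1 gene of the set with all RANKL-deficient arrays higher, and that of Clec12b, the next measured lectin gene along the chromosome and itself an inhibitory receptor gene, is shown beside it. Both windows are 300 bases long and cover the transcript start that the RefSeq table gives (GRCm38.p6). The Clec12a window lies at chr6:129349994-129350293 on the plus strand and that of Clec12b at chr6:129385454-129385753 on the minus strand. Capitals mark GAGGAA and its reverse complement TTCCTC, a core bound by the myeloid factor PU.1.
Clec12a: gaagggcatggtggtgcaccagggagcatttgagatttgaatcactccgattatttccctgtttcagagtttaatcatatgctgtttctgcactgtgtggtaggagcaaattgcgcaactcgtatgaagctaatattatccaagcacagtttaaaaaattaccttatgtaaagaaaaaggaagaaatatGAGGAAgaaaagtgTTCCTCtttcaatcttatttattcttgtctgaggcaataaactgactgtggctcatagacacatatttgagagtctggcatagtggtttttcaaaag
Clec12b: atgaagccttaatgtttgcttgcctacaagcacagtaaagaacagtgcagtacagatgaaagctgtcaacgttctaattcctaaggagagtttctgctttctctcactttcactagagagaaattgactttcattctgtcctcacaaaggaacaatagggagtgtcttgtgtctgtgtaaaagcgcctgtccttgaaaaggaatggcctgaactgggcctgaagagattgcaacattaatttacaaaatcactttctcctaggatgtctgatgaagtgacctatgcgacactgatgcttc
The Clec12a window holds the letters once on each strand and the Clec12b window holds none. Of all 32851 windows of this length, 28.3% hold them on either strand, as do 16 of the 29 windows (55.2%) of the measured C-type lectin genes. A match describes the letters only and is not a binding site. The motif was chosen after the sequence was seen.

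Clec12a measured 6.10, 4.74 and 6.02 on RANKL-deficient arrays 1, 2 and 3, against 3.94, 4.19 and 3.29 on control arrays 1, 2 and 3. All 3 RANKL-deficient arrays lay above all control arrays, with array 2 nearest to them. The means were 5.62 ± 0.77 in RANKL-deficient and 3.81 ± 0.47 in control cells (SD, n = 3 each), a 3.52-fold difference. On the log2 scale this was 1.81 (SE 0.40, 95% confidence interval 0.86 to 2.77, limma adjusted p = 0.408), which did not pass the threshold over all genes. The difference stayed between 1.55 and 2.26 when 1 array was left out, and it was 2.33 without control arrays 1 and 2. The control values and that of RANKL-deficient array 2 lay under the median of all genes, as did the mean over the 6 arrays (4.71). How far these values stand above background was not measured.

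The 11 macrophage and monocyte markers measured summed to 587, 859 and 798 on the linear scale on RANKL-deficient arrays 1, 2 and 3, against 645, 846 and 661 on control arrays 1, 2 and 3, and 7 of them had higher and 4 lower values. The lowest and the highest of these sums were both on RANKL-deficient arrays. The 8 dendritic cell markers summed to 378, 341 and 400 on RANKL-deficient arrays, against 330, 285 and 368 on control arrays, and these ranges overlapped too. Of the 8, 3 had higher and 5 lower values. Batf3 (mean 7.48) was the highest of the 8 and weighs most in these sums, and 6 lay at or below the median of all genes. The mean log2 level of the 8 was 4.73 to 4.85 on RANKL-deficient and 4.73 to 4.89 on control arrays. No marker was listed at 0. Of the defining markers, Csf1r, Lyz2 and Zbtb46 lay above the median of all genes and Adgre1, Flt3 and Xcr1 below it. The part of myeloid cells in the Clec12a difference was not tested. In sorted populations, a difference in the number of cells that express a gene and a difference in RNA per cell cannot be told apart.

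The lectin genes next to Clec12a had much smaller differences. Clec2m, Clec12b, Clec1b, Clec9a, Clec1a and Clec7a, the nearest measured lectin gene before it and the 5 after it on chromosome 6, had differences from −0.19 to 0.043. Over all 25 C-type lectin genes on chromosome 6 the median was −0.16, with 8 higher and 17 lower. The 8 on other chromosomes had differences from −0.11 to 0.14.

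**Figure D2:**
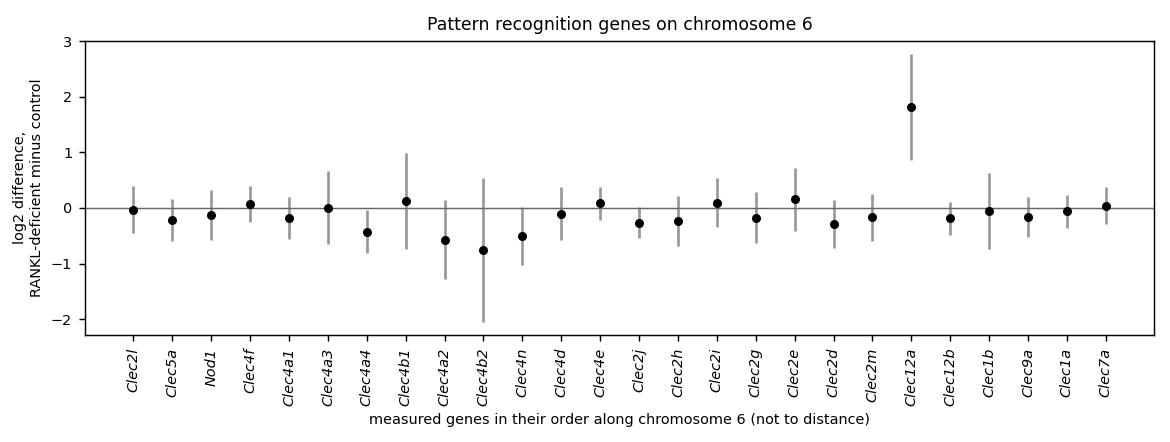
Log2 difference, RANKL-deficient minus control, of the measured members on chromosome 6 (25 C-type lectin genes and Nod1), placed in gene order and not to distance. Bars are 95% confidence intervals from limma. Clec12a (1.81) stands beside neighbours with differences from −0.19 to 0.043.

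Among the other C-type lectin genes, the next by p had lower values in RANKL-deficient cells. Clec4a4, which encodes a dendritic cell immunoreceptor of the DCIR group, measured 2.52, 2.59 and 2.52 on RANKL-deficient arrays, against 3.23, 2.69 and 2.99 on control arrays. The groups did not overlap, but all 6 values were low, and the difference was −0.43 (SE 0.16, limma adjusted p = 0.593). Clec4n, which encodes Dectin-2, a receptor for fungal mannans, measured 3.99, 3.59 and 3.60 on RANKL-deficient arrays, against 4.02, 4.68 and 3.99 on control arrays, a difference of −0.50 (SE 0.22). Its groups met at the edge without overlap, and the difference was −0.28 without control array 2 and −0.26 without control arrays 1 and 2. Clec2j and Clec12b differed by −0.26 and −0.19, also without overlap, and Clec12b by −0.11 without control array 1.

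Clec4b2 had the lowest difference of all members, and it rested on 1 array. It encodes an activating receptor related to DCIR and measured 3.25, 3.42 and 3.45 on RANKL-deficient arrays, against 5.55, 3.43 and 3.39 on control arrays. The difference of −0.75 (SE 0.55, adjusted p = 0.726 by limma) was −0.038 without control array 1. Clec4a2, an inhibitory receptor gene of the DCIR group, measured 4.55, 3.97 and 3.88 on RANKL-deficient arrays, against 5.33, 4.36 and 4.43 on control arrays. Its difference of −0.57 was −0.26 without control array 1, and its groups overlapped. The Clec4a and Clec4b genes are close paralogs, so probes may not separate them fully.

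The 2 Clec2 genes above the median of all genes encode ligands of NK cell receptors. Clec2d encodes a ligand of the inhibitory receptor NKR-P1B and measured 8.53, 7.96 and 8.46 on RANKL-deficient arrays, against 8.48, 8.69 and 8.65 on control arrays. The difference was −0.29 (95% confidence interval −0.72 to 0.13), and it was −0.11 without RANKL-deficient array 2, the lowest array. Clec2i, a related ligand gene named after its values were seen, measured 8.50, 8.92 and 8.80 on RANKL-deficient arrays, against 8.58, 8.42 and 8.94 on control arrays. These groups overlapped, with a difference of 0.097 that was −0.20 without control arrays 1 and 2. Over the 8 Clec2 genes the median was −0.17, with 2 higher and 6 lower.

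Clec7a, named after its values were seen, encodes Dectin-1, the receptor for fungal beta-glucan. It measured 4.84, 4.42 and 4.62 on RANKL-deficient arrays, against 4.59, 4.58 and 4.58 on control arrays, a difference of 0.043 (95% confidence interval −0.29 to 0.38) that was −0.065 without RANKL-deficient array 1. Clec9a, a receptor for actin exposed by dead cells, averaged 2.84 ± 0.16 in RANKL-deficient and 2.99 ± 0.18 in control cells (SD, n = 3 each), a difference of −0.16 that was −0.054 without control array 2. Clec5a, which couples to DAP12, Clec2h and Clec4a1 had differences of −0.22, −0.23 and −0.18. These were −0.093 for Clec5a without control array 1, −0.082 for Clec2h without control array 2 and −0.071 for Clec4a1 without control array 3. The 21 C-type lectin genes after the 12 with the smallest p, Clec2i and Clec7a among them, lay between −0.17 and 0.16, and the groups of all 21 overlapped.

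**Figure D3:**
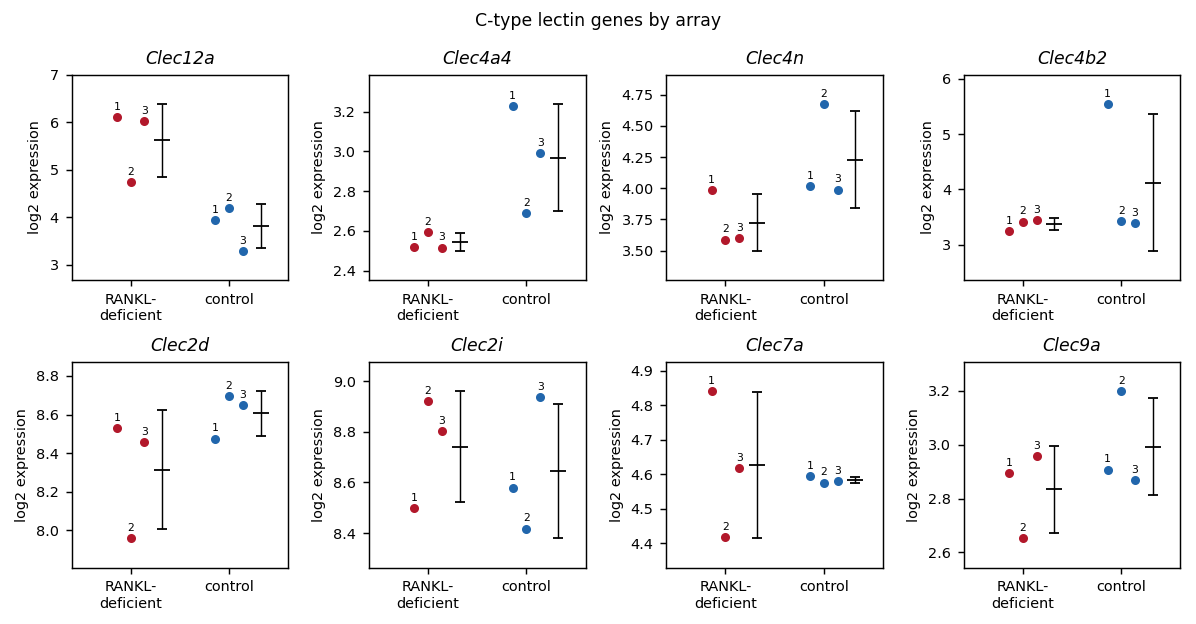
Log2 expression of 8 C-type lectin genes on each array (numbers are replicates, not taken as pairs). RANKL-deficient arrays are in red and control arrays in blue. Bars show mean and SD of 3 arrays, and each panel has its own axis, not starting at 0. Clec12a separates the groups, while Clec4b2 shows 1 high control array (5.55).

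Of the 10 Toll-like receptor genes, none passed the adjusted threshold, 4 had higher and 6 lower values, and the median was −0.040. The receptors that act at the cell surface, Tlr1, Tlr2, Tlr4 and Tlr6, were all under the median of all genes. Tlr4, the receptor for lipopolysaccharide, measured 4.34, 5.42 and 5.01 on RANKL-deficient arrays, against 3.32, 4.25 and 4.89 on control arrays. The groups overlapped and scattered widely, with a difference of 0.77 (SE 0.43, 95% confidence interval −0.24 to 1.78, adjusted p = 0.679 by limma). It was 0.36 without control array 1, 1.14 without control array 3, and 0.033 without control arrays 1 and 2.

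Tlr2, which senses bacterial lipoproteins, measured 4.49, 4.21 and 5.20 on RANKL-deficient arrays, against 4.70, 5.23 and 5.14 on control arrays. Its difference of −0.39 (SE 0.28) was −0.18 without RANKL-deficient array 2. Its partners Tlr1 and Tlr6 differed by −0.14 and −0.067. Their groups overlapped as well.

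Among the receptors of endosomes, which sense nucleic acids, the groups did not overlap for Tlr8 and Tlr9. Tlr8, a receptor for single-stranded RNA, measured 2.91, 2.97 and 2.87 on RANKL-deficient arrays, against 3.52, 3.18 and 3.18 on control arrays. The groups did not overlap, with a difference of −0.38 (SE 0.14, limma adjusted p = 0.590), at values below those of most genes on the array. Tlr9, the receptor for unmethylated CpG DNA, measured 5.49, 5.53 and 5.69 on RANKL-deficient arrays, against 5.69, 6.06 and 5.69 on control arrays. These values met at the edge, with the highest RANKL-deficient array just under the lowest control array, and the difference of −0.24 (SE 0.15) was −0.12 without control array 2.

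Tlr3, which binds duplex RNA, lay above the median of all genes and measured 6.39, 6.07 and 6.00 on RANKL-deficient arrays, against 6.16, 5.91 and 6.18 on control arrays. Its difference was 0.073 (95% confidence interval −0.30 to 0.44). Tlr7, another receptor for single-stranded RNA, differed by 0.19, with RANKL-deficient array 2 (4.17) above the other 5 arrays, and the difference was −0.19 without that array. Tlr13, which senses bacterial ribosomal RNA, differed by 0.18, with RANKL-deficient array 3 (4.52) the highest, and by −0.14 without it. Tlr12, a sensor of parasite profilin, differed by −0.014, and by 0.55 without control arrays 1 and 2.

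NOD-like receptor genes gave no gene past the adjusted threshold, 9 higher and 17 lower values, and a median of −0.075. Nod1 and Nod2 overlapped between the groups. Nod1 averaged 5.45 ± 0.14 in RANKL-deficient and 5.58 ± 0.33 in control cells (SD, n = 3 each). Nod2 measured 4.90, 4.88 and 4.90 on RANKL-deficient arrays, against 4.99, 5.02 and 4.80 on control arrays, a difference of −0.041 (95% confidence interval −0.33 to 0.24).

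Of the Nlrc genes, Nlrc3 and Nlrc5 lay above the median of all genes. Nlrc3, a negative regulator of innate and T cell signalling, measured 7.44, 7.07 and 7.16 on RANKL-deficient arrays, against 6.85, 7.13 and 6.02 on control arrays. Its difference of 0.55 (SE 0.28, adjusted p = 0.651 by limma) was the largest of this family and was 0.23 without control array 3, the lowest array, and 1.20 without control arrays 1 and 2. Nlrc4, which forms an inflammasome with the flagellin and secretion-system sensors of the Naip family, was low on every array, between 2.44 and 2.71. Naip2, the sensor for the rod protein of bacterial secretion systems, measured 4.99, 5.11 and 5.16 on RANKL-deficient arrays, against 5.65, 5.15 and 5.20 on control arrays. Its difference of −0.25 was −0.089 without control array 1.

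For 2 NOD-like receptor genes the probe sets disagreed. Nlrc5, the transactivator of MHC class I genes, has 19 probe sets with 1 symbol. The one with the highest mean gave 8.30, 8.17 and 8.10 on RANKL-deficient arrays, against 8.42, 7.78 and 8.26 on control arrays, a difference of 0.038 (SE 0.19). Over the 19 probe sets the difference ran from −0.22 to 1.37 with a median of 0.083, and 17 lay within 0.4 of 0. The other 2 gave 1.37 and 1.13, and on both control array 1 was the lowest of the 6 arrays, at 5.28 and 5.31.

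Nlrx1, which encodes a mitochondrial regulator of antiviral signalling, has 2 probe sets that separated the groups in opposite directions. The one with the higher mean gave 5.76, 5.45 and 5.73 on RANKL-deficient arrays, against 5.85, 5.78 and 6.05 on control arrays, a difference of −0.25 (SE 0.15, adjusted p = 0.684 by limma). The other gave 5.67, 5.56 and 5.23 on RANKL-deficient arrays, against 5.17, 4.89 and 5.02 on control arrays, a difference of 0.46. No direction is given for Nlrx1, for which the mean of its probe sets differed by 0.10.

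All 19 Nlrp genes were under the median of all genes, with differences from −0.39 to 0.062. Nlrp3, the inflammasome sensor of membrane damage and crystals, measured 3.59, 3.74 and 3.51 on RANKL-deficient arrays, against 3.81, 3.82 and 3.47 on control arrays. The groups overlapped, with a difference of −0.088 (95% confidence interval −0.44 to 0.26). Nlrp6, best known from intestinal epithelium, averaged 4.78 ± 0.10 in RANKL-deficient and 4.92 ± 0.16 in control cells (SD, n = 3 each). Nlrp1a, Nlrp1b and Nlrp10 differed by −0.20, 0.040 and −0.10, and Nlrp1a by −0.038 without control array 3. Of the other 14, several known from oocytes and early embryos, Nlrp4e, Nlrp4c and Nlrp4f had the smallest p, with differences of −0.39, −0.19 and −0.12. Without control array 1 that of Nlrp4e was −0.11 and that of Nlrp4c −0.098, and without RANKL-deficient array 3 that of Nlrp4f was −0.074. The Nlrp4 genes are close paralogs, and 1 further probe set carries the symbols of both Nlrp4e and Nlrp4c.

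Among the adaptors, Myd88, Ticam1 and Pycard lay above the median of all genes, and the groups of all 4 overlapped. Myd88 measured 8.07, 7.99 and 8.22 on RANKL-deficient arrays, against 8.24, 8.46 and 8.14 on control arrays, a difference of −0.19 (95% confidence interval −0.52 to 0.14) that was −0.096 without control array 2. Ticam1 measured 7.83, 8.16 and 7.95 on RANKL-deficient arrays, against 8.15, 7.68 and 7.94 on control arrays, a difference of 0.053 (95% confidence interval −0.34 to 0.45). Pycard measured 7.51, 7.48 and 7.61 on RANKL-deficient arrays, against 8.08, 7.45 and 6.73 on control arrays. The RANKL-deficient arrays were close together and lay inside the control range, with a difference of 0.11 that was −0.23 without control array 3, 0.45 without control array 1 and 0.80 without control arrays 1 and 2. Ticam2, the bridging adaptor of Tlr4 to TRIF, was under the median of all genes and differed by 0.093.

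**Figure D4:**
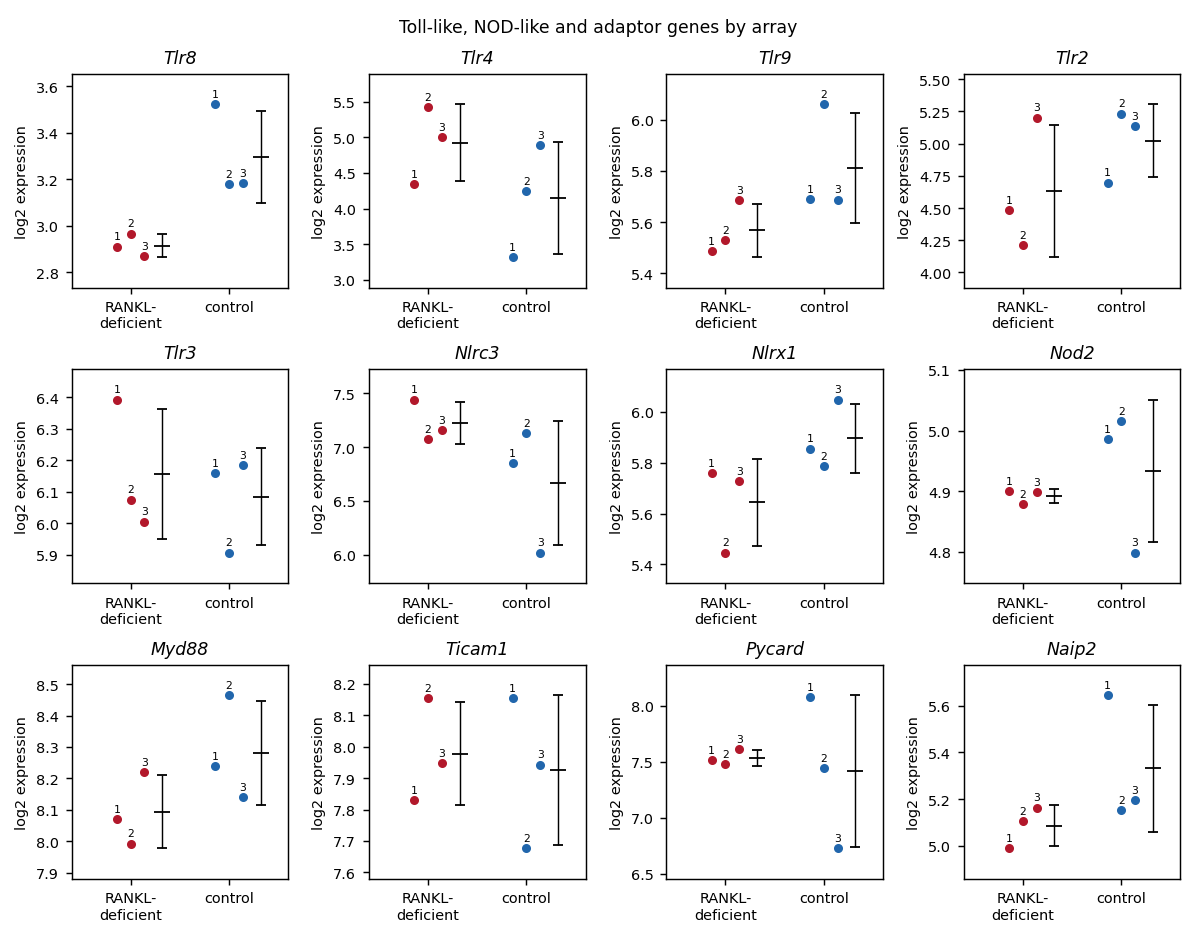
Log2 expression of 12 Toll-like receptor, NOD-like receptor and adaptor genes on each array (numbers are replicates, not taken as pairs). RANKL-deficient arrays are in red and control arrays in blue. Bars show mean and SD of 3 arrays, and each panel has its own axis, not starting at 0. Tlr8, Tlr9 and the Nlrx1 probe set shown have all RANKL-deficient arrays below the control arrays, and in the other panels the groups overlap. The other Nlrx1 probe set, not shown, differed by 0.46, with all RANKL-deficient arrays above the control arrays.

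Partner and signalling genes of these receptors were taken from 4 lists, none of whose genes passed the adjusted threshold. Of 27 accessory and signalling genes of Toll-like receptors measured, 14 had higher and 13 lower values, with 2 higher and 3 lower at an unadjusted p under 0.05 (over all genes 4.25% higher and 3.9% lower). The median was 0.076, and 23 of the 27 lay above the median of all genes. Of the 9969 genes above that median, 780 were higher and 386 lower at an unadjusted p under 0.05 (limma). In this list the groups did not overlap for 3 genes with higher and 5 with lower values (over all genes 5.28% above and 9.08% below). Ly86, which encodes MD-1, measured 6.95, 7.55 and 7.68 on RANKL-deficient arrays, against 9.02, 9.59 and 8.37 on control arrays.

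All RANKL-deficient arrays lay below all control arrays for Ly86, a difference of −1.60 (SE 0.33, limma adjusted p = 0.377). It was −1.30 without control array 2 and −0.98 without control arrays 1 and 2. MD-1 forms a complex with the Toll-like protein RP105, the product of Cd180, known as a regulator of lipopolysaccharide responses in B cells and myeloid cells. Cd180 measured 4.08, 4.63 and 4.34 on RANKL-deficient arrays, against 4.83, 5.32 and 5.07 on control arrays, again without overlap, a difference of −0.72 (SE 0.19, limma adjusted p = 0.446). The 6 B cell markers measured summed to 212 to 276 on RANKL-deficient and 216 to 344 on control arrays, with 1 of the 6 higher and 5 lower. The ranges overlapped, and their part in the values of Ly86 and Cd180 was not tested. Of the defining B cell markers, Cd79b lay above and Cd79a below the median of all genes. Cd79b (mean 7.15) was the highest of the 6 and weighs most in their sums, and 4 lay at or below that median. The mean log2 level of the 6 was 4.44 to 4.53 on RANKL-deficient and 4.48 to 4.69 on control arrays.

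Lipopolysaccharide reaches Tlr4 through the products of Cd14 and Ly96. Ly96, which encodes MD-2, measured 7.23, 7.12 and 5.85 on RANKL-deficient arrays, against 7.91, 7.95 and 6.95 on control arrays. Cd14, the co-receptor that hands over lipopolysaccharide, measured 4.50, 5.15 and 5.23 on RANKL-deficient arrays, against 4.81, 6.38 and 5.59 on control arrays. Their differences were −0.87 (SE 0.43) and −0.64 (SE 0.40), and the groups overlapped for both. Both genes were named after their values were seen, as were Traf6 and Irak3, which had higher values. Traf6 differed by 0.89 (SE 0.37), without overlap and with control array 1 (4.82) the lowest, and Irak3 by 0.71 (SE 0.36), with overlap. No fits with arrays left out are given for Traf6 and Irak3. In the list that holds these genes, 14 were higher and 13 lower. The difference of Ly96 was −0.22 without control arrays 1 and 2, and −0.43 with only RANKL-deficient array 3 left out. That of Cd14 was −0.40 without RANKL-deficient array 1, −1.03 without control array 1 and −0.24 without control array 2. Tab3, a subunit of the TAK kinase complex, and Irf3, an interferon regulatory factor, differed by −0.90 and 0.42, and Tab3 by −0.59 without RANKL-deficient array 3. Irf3 differed by 0.19 without control arrays 1 and 2.

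Of 15 inflammasome and NOD effector genes measured, 10 had higher and 5 lower values, with a median of 0.041. Txnip, which binds thioredoxin and has been linked to Nlrp3, measured 8.95, 9.38 and 8.83 on RANKL-deficient arrays, against 7.54, 7.17 and 8.10 on control arrays. The groups did not overlap, with a difference of 1.45 (SE 0.26, limma adjusted p = 0.306) that was 0.96 without control arrays 1 and 2. P2rx7, the ATP-gated channel that triggers Nlrp3 in macrophages, measured 9.03, 8.77 and 8.41 on RANKL-deficient arrays, against 7.98, 8.10 and 8.16 on control arrays, a difference of 0.65 (SE 0.18, limma adjusted p = 0.458). Birc2 and Birc3, ubiquitin ligases of NOD and TNF signalling, differed by 0.50 and −0.32. Birc2 differed by 0.14 without control arrays 1 and 2. In this list 3 genes were higher and 2 lower at an unadjusted p under 0.05 (over all genes 4.25% higher and 3.9% lower). Of the 15, 11 lay above the median of all genes, where 780 of 9969 genes were higher and 386 lower at that threshold.

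Of 16 C-type lectin signalling genes, 10 had higher and 6 lower values, with a median of 0.071. Syk, the kinase downstream of Dectin-1, measured 3.71, 3.70 and 3.76 on RANKL-deficient arrays, against 4.11, 4.15 and 4.03 on control arrays. The groups did not overlap, but all 6 values were under the median of all genes, and the difference was −0.37 (SE 0.11, limma adjusted p = 0.517). Src, which encodes a tyrosine kinase, differed by −0.81, by −0.50 without control array 1, and by −0.37 without control arrays 1 and 2. Vav1 and Vav3, guanine nucleotide exchange factors, differed by −0.37 and 0.48, and Vav3 by 0.24 without control array 1 and 0.066 without control arrays 1 and 2.

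Cytosolic sensors of nucleic acids had higher values in 6 of 10 genes, with a median of 0.22. At an unadjusted p under 0.05 (limma), 4 were higher and 0 lower, against 4.25% higher and 3.9% lower over all genes. The groups of these 4 did not overlap (5.28% of all genes had all RANKL-deficient arrays above). Of the 10, 8 lay above the median of all genes. Of the 9969 genes above that median, 780 were higher and 386 lower at this threshold, and 909 had all RANKL-deficient arrays above. The 4 sensor genes with lower values, those of the RNA helicase sensors among them, had differences from −0.39 to −0.030, and their groups overlapped. Eif2ak2, which encodes the RNA-activated kinase PKR, measured 6.26, 6.86 and 6.51 on RANKL-deficient arrays, against 5.64, 5.55 and 5.52 on control arrays, a difference of 0.97 (SE 0.17, limma adjusted p = 0.306). Mavs, the mitochondrial adaptor of the RNA helicase sensors, measured 7.91, 6.95 and 7.61 on RANKL-deficient arrays, against 5.86, 6.50 and 6.76 on control arrays, a difference of 1.12 (SE 0.31, limma adjusted p = 0.472). The Mavs difference was 0.73 without control arrays 1 and 2. Sting1, the adaptor of cytosolic DNA sensing, and Zbp1, which binds left-handed nucleic acids, had differences of 0.65 and 0.63, and Sting1 of 0.32 without control arrays 1 and 2.

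**Figure D5:**
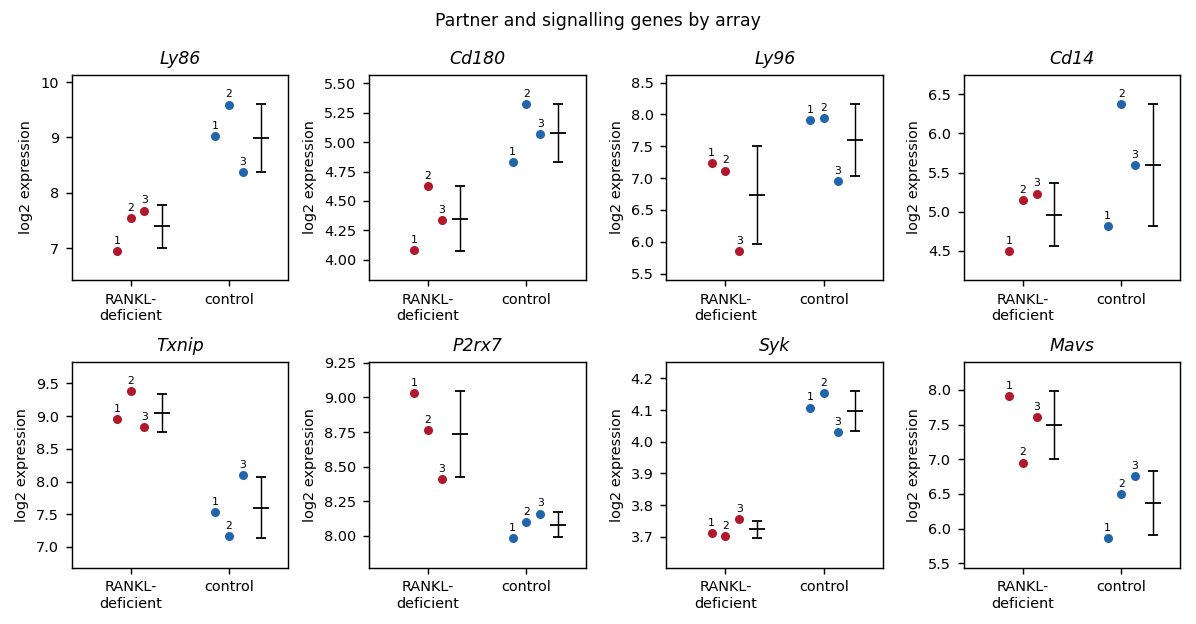
Log2 expression of 8 partner and signalling genes on each array (numbers are replicates, not taken as pairs). RANKL-deficient arrays are in red and control arrays in blue. Bars show mean and SD of 3 arrays, and each panel has its own axis, not starting at 0. Ly86, Cd180 and Syk have all RANKL-deficient arrays below, and Txnip, P2rx7 and Mavs all above, the control arrays, while Ly96 and Cd14 overlap.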

How the data were processed

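Expression was measured on 6 Affymetrix mouse arrays, 3 per group, from 2 ng of RNA amplified with a NuGEN kit, per the labels' protocols. The authors deposited log2 values of 35556 probe sets, which the submitters' processing notes trace to RMA in Expression Console. For software versions and the genome build the entry is: not given in the sources used here. RMA evens out the distributions of arrays and would hide a shift common to all genes. The gene values used here still differed in spread between arrays (SD 1.86 on control array 1 to 2.01 on RANKL-deficient array 2).

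Names came from the platform annotation, in which 21789 probe sets carry 1 symbol, 1621 several and 12146 none. Of the 19938 genes, 19855 matched a RefSeq table of GRCm38.p6 by identifier, used for names and gene order. The probe set with the highest mean stood for a gene, and no filter on low values was applied. Promoter windows (RefSeq, GRCm38.p6) were found for 57 of the 73 members.

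The groups were compared by a two-sided moderated test, lmFit and eBayes of limma 3.58.1 under R 4.3.3, without a block, and p-values were adjusted by Benjamini-Hochberg across the 19938 genes. The procedure was tested on simulated data. Same-numbered replicates correlated at −0.023, 0.050 and 0.027 in their deviations from the group means, and other combinations at −0.058 to 0.026. The labels do not say whether equal numbers are pairs, and 3 arrays a group cannot decide it. The numbers were not taken as pairs in the main fit. Members and lists were chosen with earlier results of these data known.

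Named were Tnfsf11, any gene past the adjusted threshold, all Tlr genes, Nod1, Nod2, Nlrx1, the Nlrc genes, Naip2, Nlrp1a, Nlrp1b, Nlrp3, Nlrp6, Nlrp10 and the adaptors. By smallest p, 3 other Nlrp genes, 12 Clec genes and 4 genes of each signalling list were added, and defining markers were named with their lists. Alternatives were quantile normalization, median centring, a filter on low genes, eBayes with trend and robust options, array weights and the mean of probe sets. Others were a replicate block, fits without single arrays and a fit without control arrays 1 and 2. The last of these keeps control array 3 as the only control array, so it has no spread within that group. The driver of the Cre transgene is not reported here.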

Additional observations from a re-analysis of the deposited data

How the results depend on the processing

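Over 14 alternatives, no named member passed the adjusted threshold. Of the 62 named genes followed, Traf6 and Irak3 not among them, 42 kept the sign of their difference in each alternative that gave them a value. Genes at or below the median gave none when only genes above the median were kept. The number of genes past the adjusted threshold, 1, was 2 with the trend and robust options. It was 0 with a replicate block and 0 to 1 with 1 array left out. The number of members at an unadjusted p under 0.05, 3, was 5 with the trend and robust options (8.54% of all genes). With 1 array left out this number was 1 to 6 (5.70% to 14.1% of all genes). It was 0 when only genes above the median were kept, which leaves 15 members (9.21% of the genes kept). It was 3 with the replicate block, and the labels do not say whether equal replicate numbers pair the samples. Tnfsf11 was −0.037 after quantile normalization, 0.26 without control arrays 1 and 2, and −0.078 to 0.18 with 1 array left out. Signs also turned after quantile normalization for Tlr3 (−0.0065), Tlr6 (0.029), Ticam1 (−0.012), Nlrp3 (0.017), Nod2 (0.021) and Nlrc5 (−0.025), after median centring for Tlr12 (0.037) and Nod2 (0.010), and with the mean of probe sets for Nlrx1 (0.10). Without control arrays 1 and 2 they turned for Tlr1 (0.10), Tlr3 (−0.028), Tlr12 (0.55), Nlrp10 (0.045), Nod1 (0.10), Nlrp3 (0.14), Nod2 (0.094), Nlrc5 (−0.069), Nlrp4c (0.095), Clec2h (0.15) and Clec2i (−0.20). With 1 array left out the ranges that crossed 0 were −0.27 to 0.013 for Tlr1, −0.14 to 0.43 for Tlr13, −0.19 to 0.40 for Tlr7, −0.044 to 0.15 for Tlr3, −0.21 to 0.12 for Tlr6 and −0.30 to 0.21 for Tlr12. They were −0.023 to 0.20 for Ticam2, −0.23 to 0.45 for Pycard, −0.071 to 0.17 for Ticam1, −0.25 to 0.058 for Nod1, −0.11 to 0.00048 for Nod2, −0.010 to 0.12 for Nlrp1b, −0.15 to 0.17 for Nlrc5, −0.065 to 0.15 for Clec7a and −0.017 to 0.24 for Clec2i. The cause of these turns was not tested.

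With 3 arrays a group, the half-width of the 95% confidence interval of a member ran from 0.26 to 1.29 with a median of 0.38. This is the width for a single gene, and a difference must be larger to pass the test adjusted over all genes. Most members lie at or below the median of all genes, where signal over background was not measured.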
